A study of Mus musculus with 14 samples.

Results

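Chd3 and the genes of the NuRD complex were examined in RNA of sorted mouse retinal cells after knockdown of Bcor. The 10 genes were chosen by name: the remodellers Chd3, Chd4 and Chd5, the deacetylases Hdac1 and Hdac2, the scaffold genes Mta1, Mta2 and Mta3, the methyl-CpG-binding-domain gene Mbd3 and the histone-binding gene Rbbp4. They stood among 26161 genes in the count tables, and the RefSeq records of a gene were summed. Chd3 drew attention to the complex because it was already known to be lower in the shBCOR cells of these libraries. The values of the members between the groups are therefore a description, and no p-value is given for them.

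NuRD, the nucleosome remodelling and deacetylase complex, joins an ATP-driven chromatin remodeller to a histone deacetylase. A CHD subunit moves nucleosomes, HDAC1 or HDAC2 removes acetyl groups from histones, MTA proteins hold the deacetylase, an MBD protein and RBBP subunits that bind histones complete the core, and GATAD2 proteins link it to the CHD subunit. CHD3, CHD4 and CHD5 are alternative remodellers, and in the developing mouse cortex different ones are used at different steps of neuron formation. BCOR, the protein targeted here, is a corepressor that also works within a Polycomb complex.

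The cells came from wild-type CD1 mice. Eyes were electroporated at birth (P0) with 1 µg/µl of a plasmid that makes a short hairpin RNA against Bcor (pSilencer-shBcor, called shBCOR here) or with the empty vector pSilencer-CAG-Venus (control), and GFP-positive cells were sorted at 21 days. Each replicate was a pool of several sorts that reached 30000 to 70000 cells, with 2 replicates per group. The sources used here do not say whether the pools of a group shared animals, so p-values measure the spread between pools, which may be technical. Electroporation at birth mainly reaches progenitors that still divide and few of the neurons already formed.

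The shBCOR libraries held 3173927 and 4093380 counts and the control libraries 5107174 and 4973402. Bcor itself had 0 and 13 counts in the shBCOR libraries and 20 and 8 in the controls, with an adjusted p of 0.991 in edgeR's quasi-likelihood test, so the knockdown could not be checked by its target, which has 6 records. The rod markers were the most abundant of the marker lists in every library, with a summed level of 237000 to 275000 CPM (counts scaled to libraries of one common size) in shBCOR cells and 203000 to 205000 CPM in controls. Among the rod markers Nrl was listed at 0 in all libraries, and Nrl has several records in these tables.

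A part of the NuRD genes could be read from these tables, and the number of records per gene went with whether a member had counts. The 5 members with a single record, Chd3, Mta2, Hdac2, Rbbp4 and Hdac1, had counts in every library and were measured. The other 5 members held 26 records, of which 2 had any count. Chd4 (2 records), Chd5 (3 records) and Mta1 (10 records) were listed at 0 in all 4 libraries. Mta3, with 9 records, had 8 and 0 counts in the shBCOR libraries and 0 and 9 in the controls, and Mbd3, with 2 records, had 13 and 0 in the shBCOR libraries and 0 in both controls.

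A listed 0 of such a gene is not a measurement that it is silent. Over the whole tables, genes with several records were 8812 of the genes and took 6.39% of all counts, while the 17349 genes with a single record took 93.1%. The share of genes with any count differed less, at 36.2% of genes with several records and 46.4% of genes with a single one. How reads shared by several records were counted is not given in the sources used here. Likewise, in 8 lists of related chromatin genes 42 of 43 genes with a single record passed the filter on low counts, against 22 of 59 genes with several. Whether Chd4 or Chd5 takes a larger or smaller part when Chd3 is lower could therefore not be read from these counts, and no share of Chd3 among the CHD subunits is given.

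**Figure D1:**
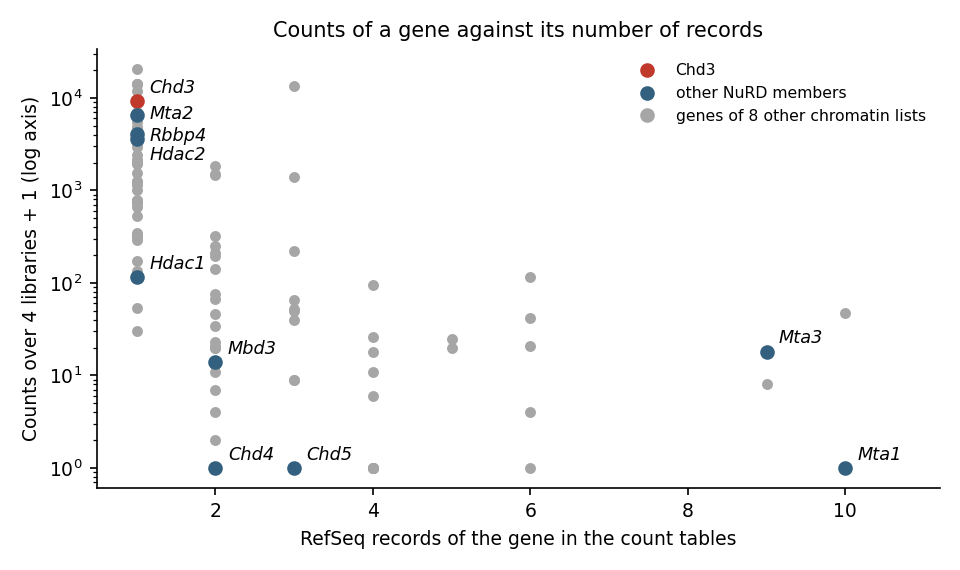
Counts summed over the 4 RNA libraries plus 1 (log axis) against the number of RefSeq records of each gene, for Chd3, the other 9 NuRD members and the genes of 8 other chromatin lists. The 5 members with a single record are the ones with counts in all libraries, and Chd4, Chd5 and Mta1, with 2, 3 and 10 records, lie at the bottom with 0 counts.

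Chd3 (NM_146019), a remodeller subunit of NuRD, was lower in the shBCOR cells by a factor close to 3, with little spread between replicates. It had 662 and 929 counts in the shBCOR libraries, against 3753 and 3844 in the controls. After scaling by the trimmed mean of M values (TMM), these were 227 and 237 CPM in shBCOR cells and 695 and 729 CPM in controls. Both shBCOR libraries lay far below both controls, and the replicates of a group differed by a factor of 1.04 in shBCOR cells and 1.05 in controls. Over all genes tested, the shBCOR libraries correlated no better with each other (Pearson r of log2 CPM 0.838) than with the controls (0.845 to 0.857). The controls correlated with each other at 0.895.

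The mean was 232 ± 6.99 CPM in shBCOR cells and 712 ± 24.0 CPM in controls (SD, n = 2 each). The log2 fold change was −1.62 ± 0.13 (SE), a 3.07-fold lower level. The plain share of all counts of a library, which uses no scaling, was 0.0209 and 0.0227% in the shBCOR libraries and 0.0735 and 0.0773% in the controls. Both measures gave the same order of the libraries, with the controls above the shBCOR cells. Chd3, on chromosome 11, overlaps the annotated genes Gm22442 and Gm32483. Neither gene was listed in the count tables, so reads of these genes could not be told apart from those of Chd3.

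Chd3 had many counts among the genes measured, though no transcript length was used. It ranked 257 by mean level among the 7775 genes that passed the filter. Of the 257 genes at or above its mean level, 1 had a lower log2 fold change, the light neurofilament chain gene Nefl. The log2 fold changes of these 257 genes had a median of 0.22 and an SD of 0.33. Over all 7775 genes, where low counts spread the values widely, 586 genes (7.54%) had a lower log2 fold change than Chd3. Since Chd3 was chosen with this difference known, its place among the fold changes is a description and no evidence.

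**Figure D2:**
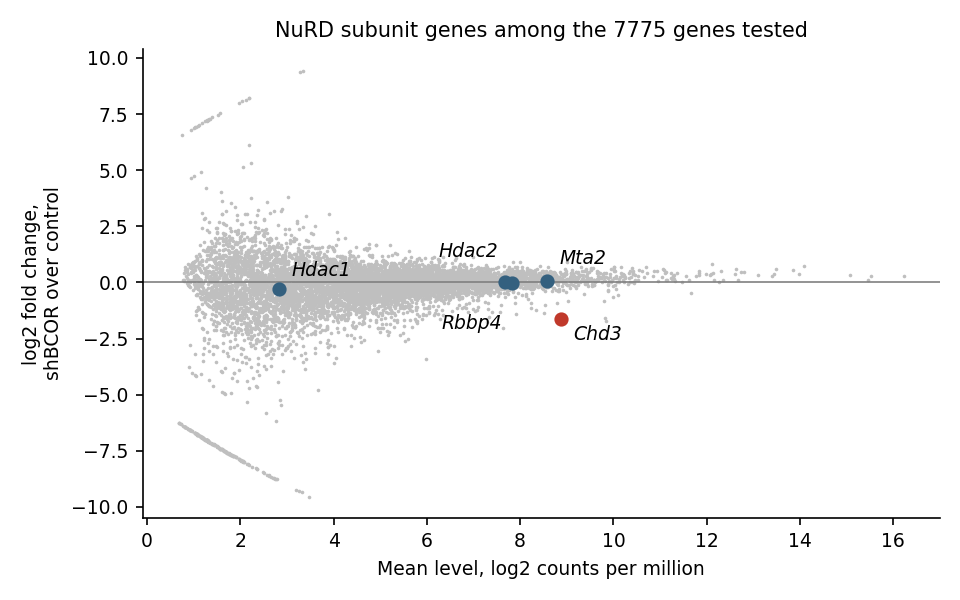
Log2 fold change of shBCOR over control against mean level (log2 CPM) for the 7775 genes tested (grey points), with Chd3 in red and the other 4 measured NuRD members in blue. Chd3 lies at −1.62, below nearly all genes of its level, while Mta2, Hdac2 and Rbbp4 lie near 0; the slanted bands hold genes with 0 counts in both libraries of a group, whose fitted folds have no set size.

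The groups overlapped for each of the other measured members. Mta2, the scaffold subunit, had 401 and 375 CPM in shBCOR cells, against 336 and 408 CPM in controls. The control values of Mta2 enclosed those of the shBCOR cells, and the log2 fold change was 0.06 ± 0.15 (SE), less than its SD of 0.15 within groups. Over all alternatives of processing it lay between −0.08 and 0.21. Mta2 overlaps Gm10353, which had 162 counts over all libraries.

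Hdac2, a catalytic subunit that deacetylates histones, had 184 and 225 CPM in shBCOR cells and 236 and 173 CPM in controls. Rbbp4, which binds histones, had 190 and 259 CPM in shBCOR cells and 276 and 183 CPM in controls. For both genes the groups overlapped, with control replicate 1 the highest library and control replicate 2 the lowest. The log2 fold change was 0.00 ± 0.21 for Hdac2 and −0.03 ± 0.25 for Rbbp4 (SE), against SDs within groups of 0.27 and 0.37. These 2 genes varied more between replicates than Chd3, whose SD within groups was 0.05 on the log2 scale. Chd3 was chosen from these same libraries, where a small spread helps a gene stand out. The contrast in spread is therefore a description and no evidence.

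Hdac1, the other deacetylase of the complex, had too few counts to place. It had 35 and 1 counts in the shBCOR libraries and 54 and 25 in the controls, or 12 and 0.255 CPM in shBCOR cells and 9.99 and 4.74 CPM in controls. The shBCOR libraries were the highest and the lowest of the 4, and the log2 fold change of −0.28 ± 1.53 (SE) bounds little. Without shBCOR replicate 1 it was −4.72, and without shBCOR replicate 2 it was 0.69.

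**Figure D3:**
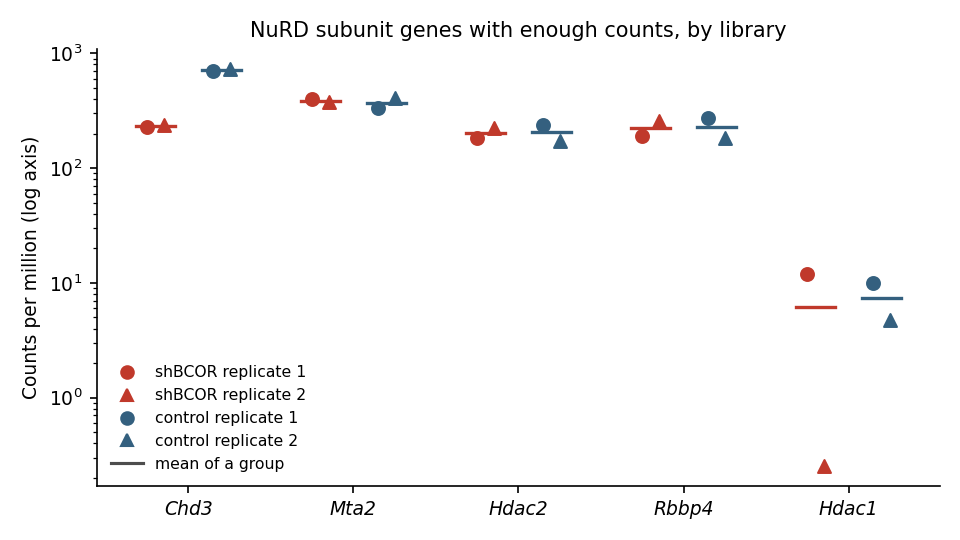
CPM (log axis) of the 5 measured NuRD genes in each library, with shBCOR in red to the left and control in blue to the right of each gene, circles for replicate 1, triangles for replicate 2 and lines for group means. Chd3 lies at 227 and 237 CPM in shBCOR cells and at 695 and 729 CPM in controls, and the groups of the other 4 genes overlap.

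Of the 5 measured members, Chd3 alone had groups that did not overlap, and the other 4 overlapped. Of all genes tested, 23.2% lay lower in both shBCOR libraries than in both controls and 18.6% lay higher. At an adjusted p under 0.05 in edgeR, 7 of the 7775 genes were called (0.09%), with 3 higher (0.0386%) and 4 lower (0.0514%), and Chd3 was the member among the 4. Just outside that threshold lay Nefh, Cst3 and Ppp1r9b, each at an adjusted p of 0.059. Since these libraries gave rise to the choice of members, nothing is read from either count. The median log2 fold change was −0.03 over the 5 measured members and −0.01 over all genes tested.

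Set against its partners within a library, Chd3 gave ratios that need no scaling between libraries. The ratio of Chd3 to Mta2 counts was 0.565 and 0.632 in the shBCOR libraries and 2.07 and 1.79 in the controls. The ratio to Hdac2 counts was 1.24 and 1.05 in shBCOR libraries and 2.94 and 4.22 in controls. The ratio to Rbbp4 counts was 1.19 and 0.914 in shBCOR libraries and 2.52 and 3.98 in controls. All 3 ratios were lower in both shBCOR libraries than in either control. The ratios share the Chd3 counts that drew attention to the gene, so they restate that difference and add no evidence for it. They are ratios of counts, not of molecules, since no transcript length was used.

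The NuRD subunits outside the 10 members did not pass the test. Of 5 such genes, 4 were tested, and 0 rose and 0 fell (edgeR; 0 had an unadjusted p under 0.05), with a median log2 fold change of 0.68. Rbbp7, the close relative of Rbbp4, had 115 and 115 CPM in shBCOR cells and 95.9 and 135 CPM in controls. Mbd2, which binds methylated CpG and replaces Mbd3 in a form of the complex, had 128 and 75.5 CPM in shBCOR cells and 72.9 and 78.1 CPM in controls (log2 fold change 0.43 ± 0.30, adjusted p = 0.747, edgeR). The value of Mbd2 was high in shBCOR replicate 1 alone. Gatad2a and Cdk2ap1 had under 10 CPM in every library and log2 fold changes of 0.96 ± 1.84 and 0.92 ± 2.38 (SE). Gatad2b had 0 and 9 counts in the shBCOR libraries and 0 and 1 in the controls and was not tested. Mbd2, Gatad2a and Gatad2b have several records each, so their levels are uncertain.

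The other members of the CHD family, which work outside NuRD, did not pass the test either. Of 7 genes, 5 were tested, and 0 rose and 0 fell (edgeR; 0 had an unadjusted p under 0.05), with a median log2 fold change of 0.24. Chd2 had 618 and 695 CPM in shBCOR cells and 731 and 633 CPM in controls, and its log2 fold change was −0.05 ± 0.13 (SE; adjusted p = 0.98, edgeR). Chd8 had 304 and 390 CPM in shBCOR cells and 380 and 345 CPM in controls, with −0.06 ± 0.16 (adjusted p = 0.983). For both genes the groups overlapped.

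Chd1, a remodeller of active genes, had 449 and 426 CPM in shBCOR cells and 391 and 350 CPM in controls, and its log2 fold change of 0.24 ± 0.14 did not pass (adjusted p = 0.641). Chd1l, a remodeller recruited to damaged DNA, had 67.5 and 79.8 CPM in shBCOR cells and 41.6 and 53.8 CPM in controls, with 0.63 ± 0.30 (adjusted p = 0.563). Chd7 had 19.5 and 14.5 CPM in shBCOR cells and 2.04 and 13.1 CPM in controls, with 1.17 ± 0.93 (adjusted p = 0.794, edgeR). Of the 5 tested, 3 (Chd1, Chd1l and Chd7) lay higher in each shBCOR library than in both controls, and 2 overlapped. Of all genes tested, 18.6% lay higher in this way. Chd6 and Chd9, with several records each, had at most 19 counts in a library and were not tested.

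**Figure D4:**
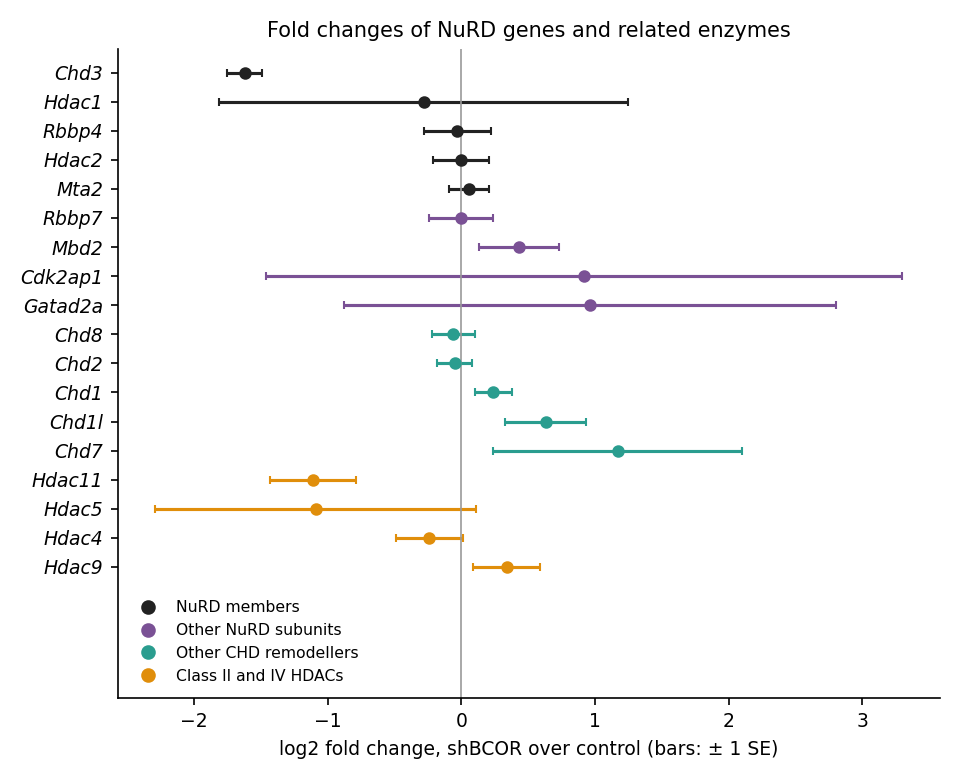
Log2 fold changes of shBCOR over control (points) with ± 1 SE (bars) for the measured NuRD members, the other NuRD subunits, the other CHD remodellers and the class II and IV deacetylases. Chd3 at −1.62 stands left of the other CHD remodellers, which lie between −0.06 and 1.17, and Hdac11 lies at −1.11.

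Across all 8 chromatin lists apart from the members, 64 of 102 genes were tested, and 0 rose and 0 fell (edgeR). At an unadjusted p under 0.05 stood 6 of the 64, with 3 of them higher and 3 lower, which is 9.38% against 9.30% of all genes tested, and their median log2 fold change was 0.06. DESeq2 called 4 of the 64, with Baz2a and Baz2b higher and Hdac11 and Smarca1 lower. It called 480 of all 7775 genes, a share near that of these lists, so nothing is read from the 4. Fits that left out 1 library keep a lone library in a group, so their counts for these lists are not given.

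Hdac11, the class IV deacetylase, was the deacetylase with the smallest p, although it did not pass. It had 50 and 33.4 CPM in shBCOR cells and 101 and 77.7 CPM in controls, and its log2 fold change was −1.11 ± 0.32 (SE; adjusted p = 0.309, edgeR). Hdac4, a class II deacetylase that supports the survival of mouse photoreceptors, had 86.0 and 112 CPM in shBCOR cells and 102 and 133 CPM in controls, with −0.24 ± 0.25 (adjusted p = 0.879). Of 4 class II and IV genes tested 0 passed, and 1 had an unadjusted p under 0.05. Hdac8, a class I deacetylase outside NuRD, had 7 and 4 counts in the shBCOR libraries and 71 and 57 in the controls (−2.80 ± 1.15, adjusted p = 0.512), and as a gene with 2 records its level is uncertain.

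Among the ISWI and INO80 remodellers 14 of 16 genes were tested and 0 passed, with 3 at an unadjusted p under 0.05. Baz2b, a bromodomain protein of ISWI complexes, had 1370 and 1300 CPM in shBCOR cells and 1090 and 1050 CPM in controls (0.32 ± 0.10, adjusted p = 0.367), and Baz2a had 280 and 345 CPM in shBCOR cells and 224 and 216 CPM in controls (0.51 ± 0.17, adjusted p = 0.388). Smarca1, an ISWI motor, had 0 counts in both shBCOR libraries and 22 and 72 in the controls, at least 9.88-fold lower with the shBCOR level set at 3 counts per library (adjusted p = 0.355). Of 23 BAF remodeller genes 13 were tested and 0 passed, with a median log2 fold change of 0 and a range from −0.57 to 0.96. Smarca2, a BAF motor, had −0.12 (adjusted p = 0.882) and Arid1b had 0.21 (adjusted p = 0.75).

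No gene of the other corepressor lists passed (edgeR). Of 20 genes of the Sin3, CoREST, NCoR and MIER complexes with their deacetylases 11 were tested and 0 passed (median log2 fold change 0.07, 1 with an unadjusted p under 0.05), and Rcor1, the CoREST scaffold, had 0.51 ± 0.35 (adjusted p = 0.747). Of 14 factors known to recruit NuRD 6 were tested and 0 passed (median −0.21, 0 with an unadjusted p under 0.05). Zfpm1, also called FOG1, had 15.1 and 8.41 CPM in shBCOR cells and 26.8 and 16.7 CPM in controls (−0.89 ± 0.59, adjusted p = 0.726). Bcl6, a DNA-binding repressor that recruits BCOR and also works with Mta3, had 0 counts in both shBCOR libraries and 13 and 20 in the controls, at least 3.46-fold lower (adjusted p = 0.597). Of 10 genes of the BCOR complex 7 were tested and 0 passed (median −0.03, 1 with an unadjusted p under 0.05). Among them Rybp had 38.4 and 46.9 CPM in shBCOR cells and 22.4 and 21.2 CPM in controls (0.97 ± 0.38, adjusted p = 0.493). The levels of Smarca1 (4 records), Smarca2 (3 records), Bcl6 (2 records) and Chd7 (2 records) are uncertain, as for the members with several records.

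The 6 genes most like Chd3 over the 4 libraries could not include a member, since the members were left out of the ranking. None of the 6 was one of the other NuRD subunits, of which Gatad2a, Gatad2b and Cdk2ap1 were too low to be ranked. Likeness was the Euclidean distance between log2 CPM values centred on their mean over the 4 libraries. The genes ranked were 2050 genes outside the members with a mean of at least 6 log2 CPM. The 6 nearest were Kif5c, a neuronal kinesin heavy chain (distance 0.25), Rab11fip4, a partner of the recycling GTPase Rab11 (0.33), Amotl1, an angiomotin-family junction protein (0.36), Apba1, a neuronal adaptor protein (0.41), Nefh, the heavy neurofilament chain (0.43) and Trio, a guanine nucleotide exchange factor (0.44). The median distance over the 2050 genes was 1.74. By the same distance Mta2, Hdac2 and Rbbp4 stood at 1.69, 1.67 and 1.69, near that median, and Hdac1 at 3.08. Of the 2050 genes, 42.4, 39.7 and 41.3% lay nearer to Chd3 than Mta2, Hdac2 and Rbbp4 did. The 6 genes were picked as the nearest, so nothing is read from the larger distances of the members.

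Kif5c had 502 and 413 CPM in shBCOR cells and 1310 and 1400 CPM in controls, with a log2 fold change of −1.57 ± 0.13 (SE). Apba1 had 113 and 104 CPM in shBCOR cells and 293 and 245 CPM in controls, with −1.31 ± 0.18. Trio had 91.2 and 103 CPM in shBCOR cells and 224 and 220 CPM in controls, with −1.19 ± 0.18. In each of the 6 genes both shBCOR libraries lay below both controls. They were picked for likeness to Chd3 in the same libraries, so this order follows from the choice.

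**Figure D5:**
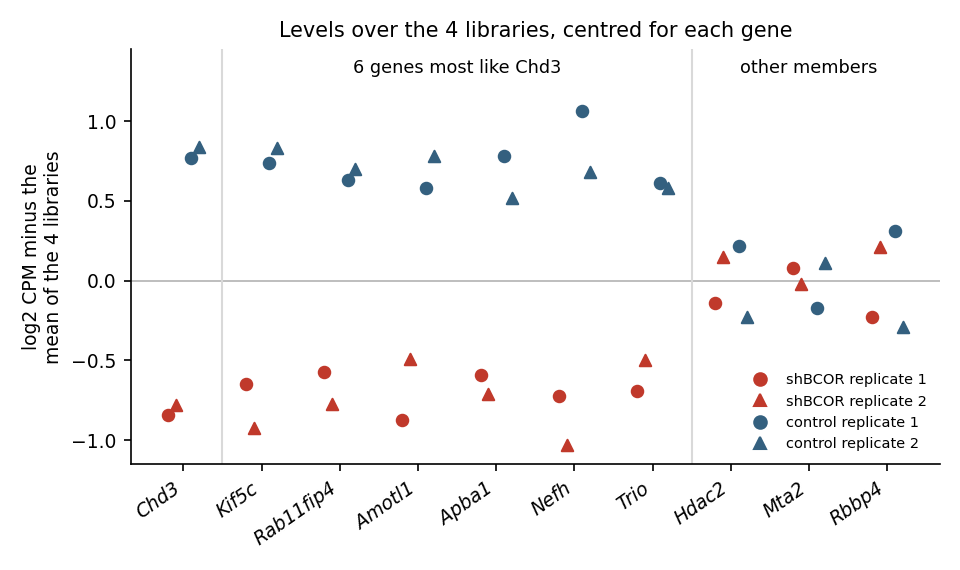
Log2 CPM minus the mean of the 4 libraries for Chd3, the 6 genes most like it and 3 other measured members, with shBCOR libraries in red to the left and controls in blue to the right of each gene, circles for replicate 1 and triangles for replicate 2. Chd3 lies at −0.84 and −0.78 in shBCOR cells and at 0.77 and 0.84 in controls, the 6 like genes split the same way, and Hdac2, Mta2 and Rbbp4 lie between −0.29 and 0.31.

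Marker sums of inner retinal neurons were smaller in the shBCOR libraries, which moves with Chd3, and their part in its difference was not tested. In pools of sorted cells, fewer cells of a type and less RNA per cell cannot be told apart. Of all genes tested 9.3% had an unadjusted p under 0.05, and 23.2% lay lower in both shBCOR libraries than in either control. Of the tested markers, 8 of 10 ganglion and horizontal, 4 of 6 amacrine and 6 of 10 bipolar ones lay lower in this way, and 0 lay higher. The 13 ganglion and horizontal cell markers summed to 390 to 728 CPM in shBCOR cells and 1850 to 1900 CPM in controls. Most of this was the neurofilament chains Nefl, Nefm and Nefh, and the other 10 markers summed to 66.8 and 29.8 CPM in shBCOR cells and 102 and 133 CPM in controls. Of 10 tested (4 at an unadjusted p under 0.05), 0 rose and 1 fell, Nefm, the medium neurofilament chain (log2 fold change −3.43 ± 0.33, adjusted p = 0.0204, edgeR), and the median was −1.74. This list holds Nefh, one of the genes most like Chd3 (adjusted p = 0.059). Rbpms and Slc17a6, defining markers of ganglion cells, were at 0 in all libraries, and both have several records. The 11 amacrine markers summed to 35 to 37 CPM in shBCOR cells and 114 to 134 CPM in controls. Of 6 tested 0 passed (4 at an unadjusted p under 0.05), the median was −1.99, and Pax6, Tfap2a and Calb2 were listed at 0. The 13 bipolar markers summed to 1040 to 1420 CPM in shBCOR cells and 1660 to 1780 CPM in controls. Of 10 tested 0 passed (3 at an unadjusted p under 0.05), the median was −0.47, and Pcp2 and Gng13 were among those listed at 0.

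Of 14 rod markers tested 1 rose and 0 fell, and 9 had an unadjusted p under 0.05, against 9.3% of all genes tested. Of the 14, 12 lay higher in both shBCOR libraries than in either control, against 18.6% of all genes tested. The median log2 fold change of the rod markers was 0.31, and the gene that rose was Rp1, a microtubule-binding protein of the outer segment (0.72 ± 0.07, adjusted p = 0.0173, edgeR). Rp1 has 3 records, all with counts, and its level is uncertain as for other genes with several records. The 11 cone markers summed to 3010 to 3670 CPM in shBCOR cells and 2620 to 2760 CPM in controls (9 tested, 0 passed, 1 at an unadjusted p under 0.05; median −0.13), with Cnga3 and Gngt2 at 0. Kcnv2, a potassium channel subunit, made up most of that sum, with 2700 and 2420 CPM in shBCOR cells and 1780 and 1740 CPM in controls. Without Kcnv2 the cone markers summed to 968 and 587 CPM in shBCOR cells and 983 and 877 CPM in controls. The 13 Müller glia markers summed to 4120 to 5090 CPM in shBCOR cells and 5710 to 5850 CPM in controls (9 tested, 0 passed, 3 at an unadjusted p under 0.05; median −0.32), with Car14 at 0. Microglia and macrophage markers summed to 4.46 to 7.14 CPM in shBCOR cells and 18.2 to 20.9 CPM in controls, with P2ry12, Aif1 and Ptprc at 0. Astrocyte and oligodendrocyte markers summed to 24 to 31.1 CPM in shBCOR cells and 41.1 to 45.3 CPM in controls, with Pax2, Pdgfra, Olig1 and Mog at 0. Vascular and pericyte markers summed to 340 to 378 CPM in shBCOR cells and 385 to 403 CPM in controls, nearly all of it Kdr, with 7 of 9 at 0. Pigment epithelium markers summed to 0 to 19.6 CPM in shBCOR cells and 1.90 to 9.25 CPM in controls, with Best1, Tyr and Tyrp1 at 0, and all 5 red blood cell markers were at 0. The parts of these cell types in the value of Chd3 were not tested.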

How the data were processed

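RNA was measured in 4 libraries, 2 of shBCOR cells and 2 of control cells, grouped by title. For shBCOR replicate 2 the number in the table's name differs from that in the title, and the title decided. Whole-number counts per RefSeq record were deposited by the authors, and HTSeq is the counting tool named in the labels. Trimmomatic, TopHat and DESeq2 and the builds mm10 and mm9 are named, without roles, in the submitters' processing notes. The sources used here do not give the strand setting, so overlapping and antisense genes cannot be told apart. Of 45895 records, 45749 (99.7%) got a gene symbol from RefSeq's table for GRCm38.p6, and the records of a symbol were summed.

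The members and lists were chosen with earlier results of these data known. Summed counts were fitted with edgeR 4.0.16 in R 4.3.3 (TMM scaling, filterByExpr by group, robust quasi-likelihood F test, two-sided). Benjamini-Hochberg adjustment ran over the 7775 genes tested, with a threshold of 0.05. CPM used the TMM-scaled library sizes, and 1 count was worth 0.185 to 0.343 CPM. The common biological coefficient of variation was 0.545. Named genes were the members, Bcor, from each other list those past the threshold or else up to 4 with the smallest p, and the 6 genes most like Chd3. Chd8, Nefl, the genes just outside the threshold and untested or zero genes of the lists were named after their values were seen. The floor of 3 counts per library covers counting error only. Each SE of a log2 fold change comes from the quasi-likelihood fit and includes the variation between libraries. Alternatives were other scalings, filters and tools, single records, a replicate block and leaving out each library. The 10 CUT&RUN peak lists were not used here, since no annotation of their build was used to place peaks at the members. Some genes are not reported here.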

Additional observations from a re-analysis of the deposited data

How the results depend on the processing

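The log2 fold change of Chd3 stayed between −1.66 and −1.59 under all 11 alternatives and moved by less than the spread between replicates. This describes the value that drew attention to Chd3 and is no further evidence for it. Of 44 values for the other 4 measured members, 43 stayed within their spread; the exception was Hdac1 without shBCOR replicate 1, at −4.72. The number of genes past the threshold was 7, and it was again 7 with DESeq2 size factors, upper-quartile scaling, a filter of 1 CPM in 2 libraries or single records. It was 480 with DESeq2's own test, 205 with no filter on low counts and 23 with the replicate block, and the 7 genes were among them each time. Leaving out single libraries gave 4 to 525 genes: 4 without control replicate 1, 5 without control replicate 2, 525 without shBCOR replicate 1 and 491 without shBCOR replicate 2. A lone library is there assumed to vary like the other group. Of the 64 chromatin genes tested outside the members 0 passed, against 4 with DESeq2 and 0 to 3 when single libraries were left out; the cause was not tested. Same-numbered libraries did not deviate together (r = −0.00793 across 7775 genes), so the replicate block rests on a number only. The planned share of Chd3 among the CHD genes was not run, because Chd4 and Chd5 were listed at 0, and its version per kilobase was not run, because no transcript length was used. Hdac1, Mta3 and Mbd3 had at most 54 counts in a library, too few to place.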
